A study of Canis lupus familiaris with 33 samples.

Results

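The mitochondrial ribosomal protein genes are described here in canine invasive urothelial carcinoma (iUC), a bladder cancer of dogs, and in normal canine bladder mucosa. The members were the rows of the TMM-normalized expression table whose gene symbol starts with MRPL or MRPS followed by a digit. This gave 50 of 25096 rows, which carry 49 symbols because MRPL33 stands on a pair of rows. By symbol, 31 rows belong to the large subunit and 19 to the small subunit. A RefSeq gene table of the assembly UU_Cfam_GSD_1.0 lists 76 symbols of this form, and the other 27 were not analysed here. In all 29 tumors MRPL24 was at the lowest value the table gives for it, and it is described apart from the other 49 rows.

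Mitochondria keep a ribosome of their own, which translates the small set of proteins that mitochondrial DNA encodes, all of them core subunits of the respiratory chain and the ATP synthase. Its RNA is made in the mitochondrion, while every one of its proteins is encoded in the nucleus, made in the cytosol and imported. Many of these proteins have a counterpart in the bacterial ribosome, and the rest were added during mitochondrial evolution. Cells that build more respiratory complexes need more mitochondrial translation.

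RNA was sequenced from 29 iUC tumors, taken by cystoscopic biopsy from dogs that had received no treatment, with 1 tumor per dog, and from 4 samples of normal bladder mucosa. The normal mucosa was the urothelial layer dissected from the bladders of dogs euthanized for other disease. The study's methods describe the tumors as high grade and made largely of epithelial cells. No group was treated or genetically altered in the study, and ages were not used here. All 33 libraries were prepared after removal of ribosomal RNA and were sequenced in 1 batch. The tables hold log2 values centred on each gene's median across the 33 samples, so they compare samples within a gene and do not give its abundance. The samples are numbered within each group in the order of their records, and a number does not pair samples.

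The total read count of a sample is not in the tables. The lowest value that several samples share in a gene was read here as a normalized value of 1 before the log, which was inferred from the values and is not given in the sources used here. On that reading, the most frequent small step above that value in a sample was taken as the worth of 1 read pair. This step was 1.54 to 1.86 on the log2 scale in the normals and 0.71 to 1.31 in the tumors. Normals and tumors differed in more than the members. Between 755 and 1019 genes were at a shared lowest value in a normal, against 3699 to 8175 in a tumor, and all olfactory receptor genes, which serve the sense of smell, were above it in every normal, against 7.30% to 92.0% of them in a tumor. All 4 smooth muscle markers measured (ACTG2, MYH11, TAGLN, TPM2) were lower in tumors, with a mean level of 5.29 to 7.28 in the normals and -1.19 to 4.07 in the tumors. All 4 fibroblast markers measured (COL1A1, COL1A2, DCN, LUM) were lower too, with a mean level of 2.56 to 3.25 in the normals and -2.31 to 2.32 in the tumors. Of 6 urothelial markers, 4 were higher in tumors (UPK3A, CDH1, EPCAM and GATA3), and 3 in the DESeq table, where GATA3 did not pass. Components of the surface plaques of the urothelium went apart. UPK1A and UPK2 differed by 0.03 and 0.04 on the log2 scale, and UPK3A by 1.85. None of these marker genes was at a shared lowest value in any sample. Of 3 endothelial markers none passed the adjusted p of the fit described below. Of 6 immune markers 1 was higher in tumors (CD68, by 1.95), and CD3D was lower in the DESeq table alone. In bulk tissue, fewer cells of a type and less RNA per cell cannot be told apart. The part of these differences in the results on the members was not tested.

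The members were mostly higher in tumors by a modest amount. Among the 49 rows, the tumor mean exceeded the normal mean in 46, as it did in 49.8% of the 18418 genes whose median sample lies above the lowest value. The median difference was 0.62 on the log2 scale, against -0.84 over all 24471 genes tested and -0.01 over those 18418 genes. By limma with Benjamini-Hochberg adjustment over all tested genes, 32 members were higher in tumors at an adjusted p of at most 0.05, 0 were lower and 17 did not pass. The background was that 22.9% of all tested genes were higher by this rule, or 30.4% of the genes whose median sample lies above the lowest value, and that 48.1% of all tested genes and 32.6% of the latter genes were lower. With the added requirement of a 2-fold change, 6 members were higher (MRPL13, MRPL41, MRPS21, MRPL55, MRPL54 and MRPS7) and 0 were lower, beside a background of 10.7% higher, or 14.2% of the genes whose median sample lies above the lowest value, and of 45.8% and 30.4% lower. The 2-fold share of the members, 6 of 49, was thus close to the background, while their share past the adjusted p, 32 of 49, was above it. In 9 members every tumor lay above every normal, which held for 7.63% of all tested genes.

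The size of the rise depended on the normalization. In the table normalized by DESeq the difference between tumors and normals was smaller by 0.29 to 0.30 for each of the 49 rows. Their median difference was then 0.32, 15 members were higher at the adjusted p (background 15.0%, or 20.0% of the genes whose median sample lies above the lowest value) and 2 were lower (MRPL52 and the second row of MRPL33, beside a background of 52.5% lower, or 37.8% of those genes). Only MRPL13 was higher by 2-fold in that table (background 5.62%). All 15 members higher in the DESeq table were also higher in the TMM table. The 17 members called in the TMM table alone were MRPL4, MRPL19, MRPL32, MRPL34, MRPL35, MRPL37, MRPL38, MRPL58, MRPS2, MRPS5, MRPS10, MRPS11, MRPS18A, MRPS25, MRPS26, MRPS30 and MRPS31. Once every sample of the DESeq table was centred on the median of its genes with a median sample over the lowest value, an alternative added after seeing the data, 29 members were higher at the adjusted p, 0 were lower and the median was 0.57. The DESeq table moved the median of the genes above the lowest value to -0.30, and relative to that median the members were higher by 0.63 in the TMM table and by 0.62 in the DESeq table.

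MRPL13, a large-subunit protein with a bacterial counterpart, rose most. Its values in the 4 normals were -1.77, -1.63, -1.18 and -2.0, and in the tumors they ran from -0.91 through a median of 0.03 to 0.94. Every tumor lay above every normal. The difference was 1.58 ± 0.26 (SE) on the log2 scale, or 3.00-fold (adjusted p = 1.96e-06), and 1.28 in the DESeq table (adjusted p = 4.24e-05).

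The other members past the 2-fold limit lay close to it, and each fell below it in the DESeq table while staying past the adjusted p. MRPL41, a mitochondrion-specific protein of the large subunit, had -1.04, -1.06, -0.71 and -1.60 in the normals and -0.89 to 0.92 in the tumors with a median of 0.06. Of the 29 tumors, 27 lay above every normal, and the difference was 1.15 ± 0.24 (SE, adjusted p = 9.33e-05). MRPS21, the counterpart of bacterial S21, had -0.96, -0.76, -0.81 and -1.37 in the normals and -0.39 to 0.99 in the tumors with a median of 0.01. Its groups did not overlap, and the difference was 1.11 ± 0.20 (SE, adjusted p = 6.87e-06). MRPL54, which is mitochondrion-specific, was the least variable of the 6 among the tumors, with -1.15, -1.01, -0.59 and -1.25 in the normals and -0.58 to 0.55 in the tumors. The tumors began just above the highest normal, and the difference was 1.03 ± 0.15 (SE, adjusted p = 3.26e-07). MRPL55, a further large-subunit protein, differed by 1.04 ± 0.19 (SE, adjusted p = 1.12e-05), with its normals between -1.40 and -0.64 and its tumors between -0.62 and 0.69. MRPS7, a protein of the small-subunit head, differed by 1.01 ± 0.22 (SE, adjusted p = 0.000108), with its normals between -1.42 and -0.48 and its tumors between -0.46 and 1.41. In all 5 of these the DESeq table gave differences of 0.71 to 0.85.

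**Figure D1:**
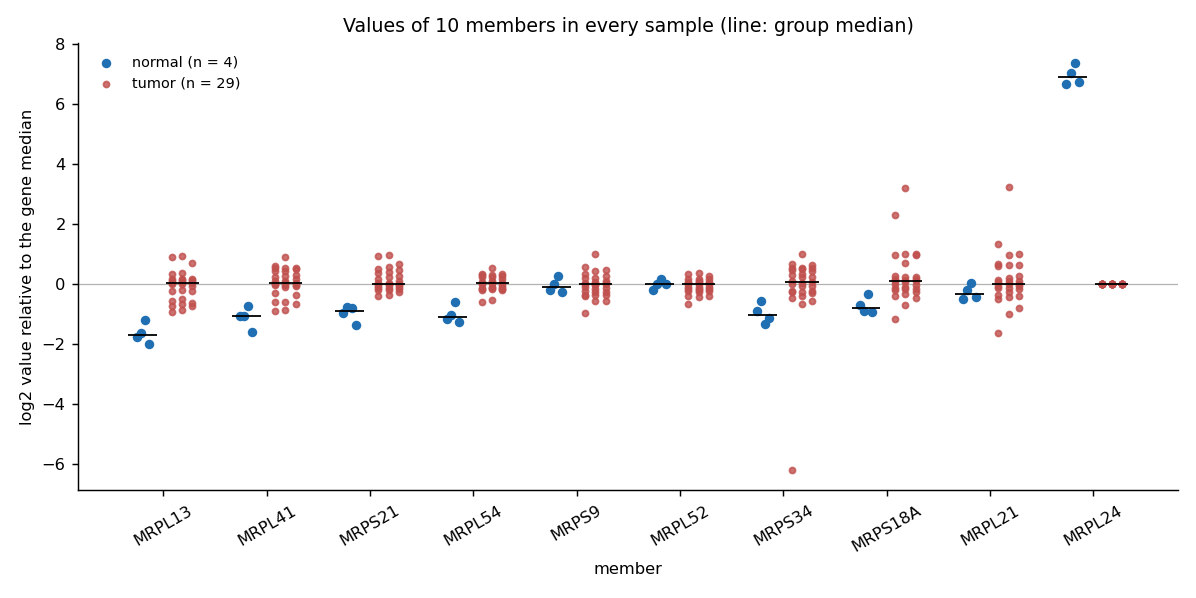
The log2 value relative to the gene median is plotted for 10 members in each of the 4 normals (blue) and 29 tumors (red), with a line at each group median. The normals of MRPL13 lie below all tumors, MRPS9 and MRPL52 overlap, 1 tumor of MRPS34 lies at -6.19, and MRPL24 is at 0 in every tumor and at 6.67 to 7.37 in the normals.

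The 2-fold count rested on normal 4. This sample was the lowest of the 4 normals in 31 of the 49 members, and normal 3 was the highest in 32. Without normal 4 only MRPL13 was past both limits, against 5 to 8 members without any other normal. The count past the adjusted p alone was 26 without normal 4, 25 without normal 1, and 30 and 33 without normals 2 and 3. Normal 4 also had the highest smooth muscle marker level of the normals (7.28) and the lowest urothelial marker level (-2.26, against -0.93 to -0.84 in the other normals). Whether this played a part was not tested.

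At the other end, 4 members differed least between the groups in the TMM table. MRPS9, a small-subunit protein with a bacterial counterpart, had -0.18, 0.02, 0.28 and -0.25 in the normals and -0.95 to 1.02 in the tumors, and 15 of the tumors lay within the range of the normals. Its difference had a 95% interval of -0.42 to 0.43 (adjusted p = 0.993). MRPL52, a mitochondrion-specific protein, had a difference of -0.05 (95% interval -0.33 to 0.24, adjusted p = 0.782), and MRPL3, which reaches towards the peptidyl transferase centre, one of 0.15 (-0.18 to 0.49, adjusted p = 0.405). MRPS36 had -0.14 (-0.62 to 0.34, adjusted p = 0.595). MRPS36 carries a ribosomal name but is now known as a part of the 2-oxoglutarate dehydrogenase complex of the citric acid cycle. The upper ends of these 4 intervals, 0.24 to 0.49, lay below the median difference of the members. In the DESeq table these members were not the least changed. They differed there by -0.30 (MRPS9), -0.34 (MRPL52, which passed as lower), -0.14 (MRPL3) and -0.44 (MRPS36). The smallest differences in that table were those of MRPS27 (-0.0019), MRPL49 (-0.020) and MRPS25 (0.021).

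The members with special roles were spread over the range. MRPL58, a peptidyl-tRNA hydrolase built into the large subunit that frees stalled ribosomes, was higher by 0.73 ± 0.20 (SE, adjusted p = 0.0022), with 27 tumors above every normal. MRPS30 and MRPS18A are named for the small subunit but sit in the large subunit of the mammalian mitochondrial ribosome. MRPS30 was higher by 0.75 ± 0.29 (SE, adjusted p = 0.0213), and its lowest tumor, tumor 2, was at -2.04 while the next was at -0.71. MRPS18A was higher by 0.97 ± 0.43 (SE, adjusted p = 0.0417), with its highest values in tumors 3 and 21 (3.21 and 2.30). In the DESeq table none of MRPL58, MRPS30 and MRPS18A passed (adjusted p = 0.0593, 0.168 and 0.16). MRPS18B, a small-subunit relative of MRPS18A, had a difference of 0.44 ± 0.24 (SE) that did not pass (adjusted p = 0.102). MRPS12, the protein of the decoding centre, had one of 0.45 ± 0.23 (SE, adjusted p = 0.085), and its normals ranged from -0.74 to 0.12.

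MRPL33, the counterpart of bacterial L33, was measured on 2 rows that went apart. On the row ENSCAFG00000005180 it had -0.61, -0.81, -0.50 and -0.90 in the normals and -0.58 to 0.37 in the tumors, a difference of 0.71 ± 0.14 (SE, adjusted p = 3.02e-05). On the row ENSCAFG00000005186 it had 0.29, 0.26, 0.74 and 0.30 in the normals and -1.39 to 0.94 in the tumors, a difference of -0.43 ± 0.24 (SE, adjusted p = 0.0999). Because both rows carry 1 symbol, neither value can be assigned to MRPL33 with certainty. Why the rows differ was not tested.

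**Figure D2:**
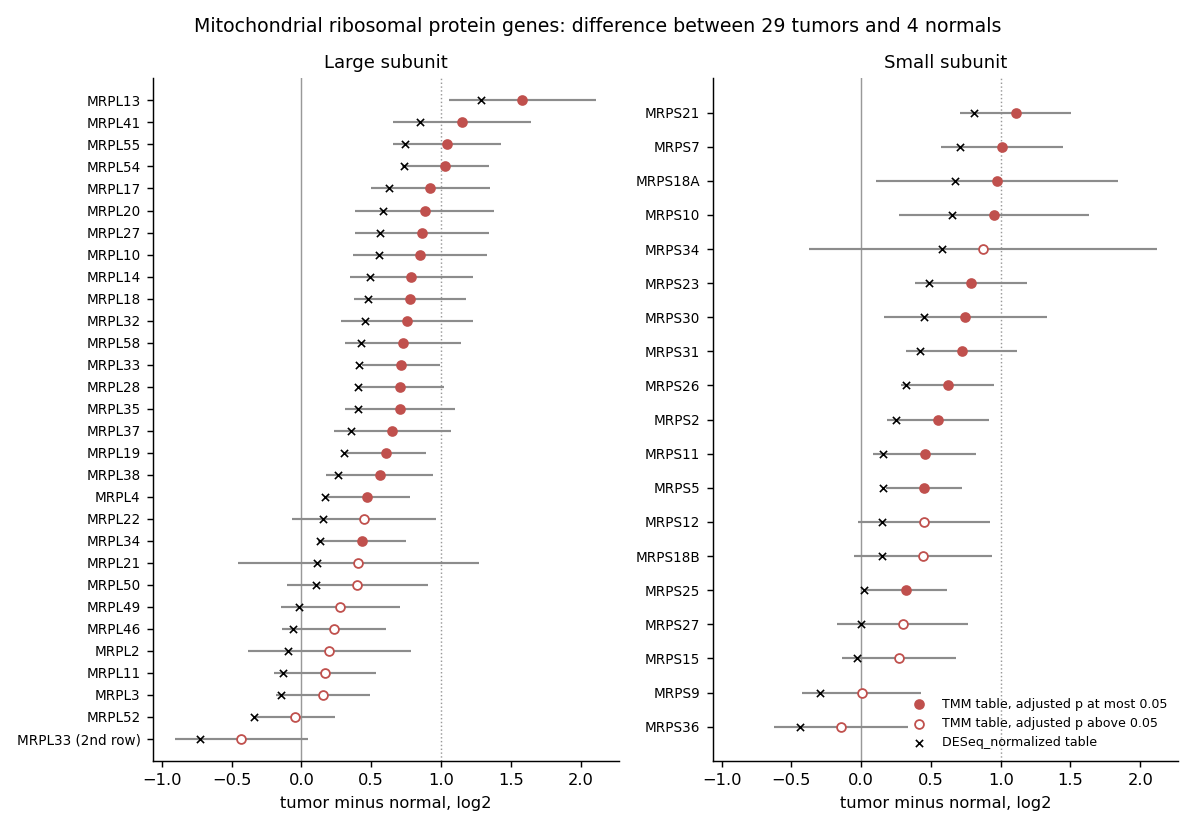
The difference between the mean of 29 tumors and the mean of 4 normals is plotted on the log2 scale for the 49 members not at their lowest value in all tumors, by subunit as named, with 95% intervals from limma on the TMM table (filled where the adjusted p was at most 0.05) and crosses for the DESeq table. Most points lie between 0 and 1 (dotted line, 2-fold), MRPL13 stands highest at 1.58, and every cross lies to the left of its point by 0.29 to 0.30.

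In MRPS34, a mitochondrion-specific protein of the small subunit, 1 tumor decided the call. Its normals had -0.90, -0.55, -1.33 and -1.12, and 26 of 29 tumors lay above all of them. Tumor 4, however, was at -6.19, while the next lowest tumor was at -0.67. The difference of 0.88 ± 0.61 (SE) did not pass (adjusted p = 0.201), and without tumor 4 it was 1.09 ± 0.23 (SE, adjusted p = 7.11e-05). That value is the lowest the normalization allows: after removal of each library's own offset, the TMM and DESeq values of MRPS34 differed in tumor 4 by -0.113 from their difference in the other samples, as in each of 505 genes at a shared lowest value there and in at most 10 samples in all (within 0.01). Of the genes beside it in gene order, NME3 was also at its shared lowest value in tumor 4 (-1.21), as it was in 1 other tumor and 1 normal, while SPSB3 was at 0.16 and MAPK8IP3 at 1.43.

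MRPL24, the large-subunit protein whose bacterial counterpart starts the folding of the large ribosomal RNA, was at its shared lowest value in 29 of 29 tumors. In the normals it lay 6.67, 7.05, 7.37 and 6.74 above that value on the log2 scale. The same held in the DESeq table, with all 29 tumors at the lowest value and normals of 6.89 to 7.52. The tables hold no read counts, so MRPL24 is only listed at its lowest value in the tumors and no fold change is given. What lies behind this was not tested. In the tested genes, 382 were listed in this way, 1.56% of all, and 28 of them carry a symbol. These genes, MRPL24 among them, passed the filter on low values through the 4 normals alone. The genes beside MRPL24 were not at the lowest value in any tumor. RRNAD1, whose span overlaps that of MRPL24 in the RefSeq assembly, was higher in tumors by 1.21 ± 0.18 (SE, adjusted p = 4.15e-07), HDGF by 1.87 ± 0.26 (SE, adjusted p = 7.86e-08), ISG20L2 by 0.76 ± 0.16 (SE, adjusted p = 6.26e-05) and PRCC by 0.58 ± 0.17 (SE, adjusted p = 0.0027).

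Counts are given here by subunit as the symbols name it, beside the TMM background of 22.9% higher at the adjusted p and 10.7% by 2-fold. Of 30 large-subunit rows other than MRPL24, 20 were higher at the adjusted p and 4 by 2-fold, with a median difference of 0.68. Of 19 small-subunit rows, 12 were higher at the adjusted p and 2 by 2-fold, with a median of 0.55. Members with a bacterial counterpart had a median of 0.61 (21 of 31 higher at the adjusted p) and mitochondrion-specific members one of 0.62 (9 of 15), while MRPL55, MRPL58 and MRPS36 were in neither list. By the DESeq values, 12 of the 30 large-subunit rows and 3 of the 19 small-subunit rows were higher at the adjusted p, as were 11 of 31 members with a bacterial counterpart and 3 of 15 mitochondrion-specific members. Against the DESeq background of 15.0%, or 20.0% of the genes whose median sample lies above the lowest value, the small-subunit and mitochondrion-specific shares were close to the background. No difference between these subgroups was tested.

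The other genes of mitochondrial gene expression were described in the same way, beside the TMM background of 22.9% higher at the adjusted p (30.4% of the genes whose median sample lies above the lowest value) and 10.7% by 2-fold (14.2%). Of 32 translation and ribosome assembly factors measured, 25 were higher at the adjusted p, 11 of them by 2-fold, and 0 were lower, with a median of 0.69. The largest rises were MRM1, a methyltransferase of the large ribosomal RNA (1.52 ± 0.24, SE, adjusted p = 8.00e-07), and CHCHD1, a further protein of the small subunit that does not carry an MRPS symbol (1.36 ± 0.21, SE, adjusted p = 7.94e-07). TUFM, the elongation factor that brings aminoacyl-tRNA to the ribosome, rose by 1.16 and DAP3, a GTP-binding protein of the small subunit, by 1.08. Of 12 mitochondrial tRNA synthetases, 8 were higher at the adjusted p, with a median of 0.70, led by EARS2 (1.28) and VARS2 (1.01), which charge the tRNAs of glutamate and valine. Of 9 genes of mitochondrial DNA maintenance and transcription, 7 were higher, with a median of 0.59, led by TFAM, which packages mitochondrial DNA (1.34), and POLRMT, the mitochondrial RNA polymerase (1.02). Among 5 regulators of mitochondrial biogenesis, ESRRA and PPARGC1A rose by 1.38 and 1.39, NRF1 rose by 0.32, and MYC and PPARGC1B did not pass. In the DESeq table NRF1 differed by 0.018 and did not pass (adjusted p = 0.893). By the DESeq values, 15 of the 32 translation and assembly factors, 7 of the 12 tRNA synthetases and 3 of the 9 genes of mitochondrial DNA maintenance and transcription were higher at the adjusted p, beside a background of 15.0% (20.0%).

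The same values were set beside those of the complexes that mitochondrial translation serves and of the cytosolic ribosome. Of 37 nuclear genes of oxidative phosphorylation subunits tested, 27 were higher and 2 lower at the adjusted p, with a median of 0.62, equal to that of the members. Of 55 rows of cytosolic ribosomal protein genes, 8 were higher and 7 lower, with a median of 0.23. All 12 proliferation genes measured were higher by 2-fold, with a median of 2.65. The TMM background was 22.9% higher and 48.1% lower. By the DESeq values, 14 of the oxidative phosphorylation genes were higher and 2 lower, 2 of the cytosolic ribosomal rows were higher and 8 lower, and all 12 proliferation genes were higher by 2-fold, beside a background of 15.0% higher and 52.5% lower at the adjusted p. In the DESeq table these medians were 0.32 for oxidative phosphorylation, -0.07 for the cytosolic ribosome and 2.35 for proliferation, so that the median of the cytosolic ribosomal protein genes changed sign.

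The mean over the 49 members, taken as a level per sample, was -0.60, -0.47, -0.33 and -0.77 in the normals, a mean of -0.54 ± 0.19 (SD, n = 4). In the tumors it ran from -0.34 to 0.70, with a mean of 0.05 ± 0.22 (SD, n = 29). Of 29 tumors, 28 lay above every normal in this level, and tumor 2 lay just below normal 3. On the DESeq values this held for 18 tumors.

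Tumors 6 and 8 were the highest, at 0.70 and 0.47, followed by tumors 18 and 26 at 0.31 and 0.29. Tumor 6 was the highest tumor in 20 of the 49 members and the highest or second in 31. The lowest were tumors 2, 1 and 25, at -0.34, -0.29 and -0.23, and tumor 2 was the lowest tumor in 9 members and tumor 1 in 7. Over the 29 tumors the mean of the large-subunit members and that of the small-subunit members were correlated, with Pearson's r of 0.83 and Spearman's rho of 0.79, and r was 0.71 once the 2 most distant tumors were left out.

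The member level varied with that of other mitochondrial gene lists. Over the 29 tumors its r was 0.86 with the mean of the oxidative phosphorylation subunit genes (rho 0.74, and r 0.78 with the 2 most distant tumors left out), 0.81 with translation and assembly factors (rho 0.76, and r 0.64 likewise), 0.75 with mitochondrial tRNA synthetases, 0.64 with mitochondrial DNA maintenance and transcription, 0.59 with cytosolic ribosomal proteins and 0.51 with proliferation genes. It was 0.02 with the regulators of biogenesis, -0.11 with fibroblast markers, 0.09 with immune markers and 0.15 with urothelial markers. With smooth muscle markers r was -0.24 and rho -0.35, and r was -0.42 with the 2 most distant tumors left out. With endothelial markers these values were -0.30, -0.22 and -0.17. The share of olfactory receptor genes above their lowest value had an r of -0.12, a rho of -0.26 and an r of -0.04 without those tumors. These are descriptions over tumors that share their libraries and scaling, and none was tested.

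**Figure D3:**
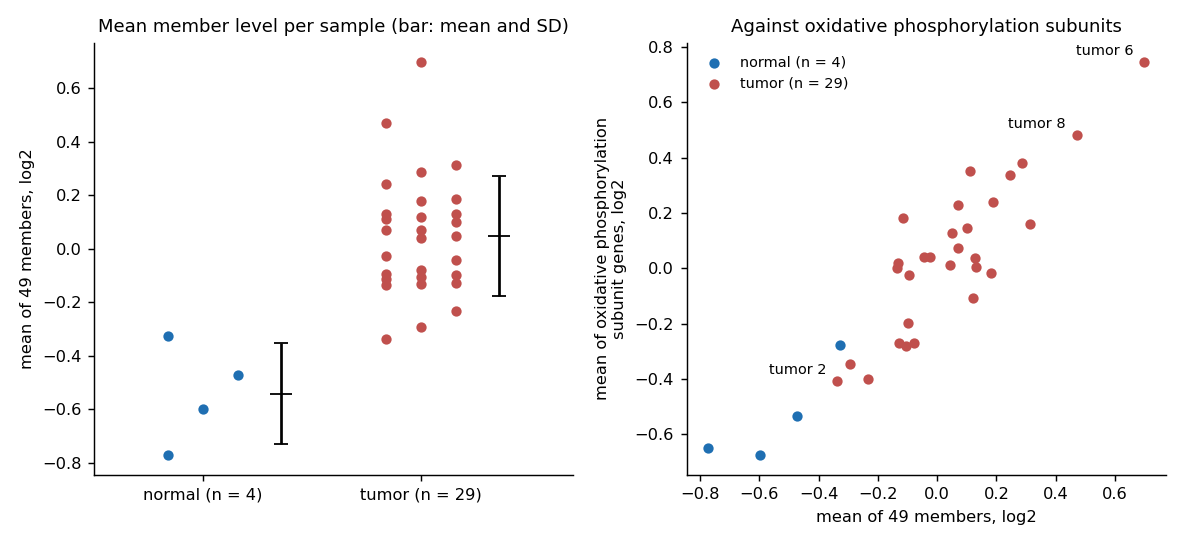
On the left the mean log2 value of the 49 members is plotted for each of 4 normals and 29 tumors, with a bar for the group mean and SD. On the right the same level is plotted against the mean of the oxidative phosphorylation subunit genes, where tumors 6 and 8 lie highest on both axes and tumor 2 is the lowest tumor on both.

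The members varied little among the tumors and tended to vary together. The median SD of a member over the 29 tumors was 0.39 on the log2 scale, against 0.59 over the 14638 genes never at a shared lowest value, and 45 of the 49 members had an SD under that median. The most variable were MRPS34 (1.24), MRPS18A (0.86), MRPL21 (0.85) and MRPS10 (0.67). The SD of MRPS34 includes tumor 4 at -6.19, far below its next lowest tumor at -0.67. Over 1176 pairs of members the mean r was 0.28 and the median 0.30, and 90.9% of the pairs were above 0. The mean r over all pairs of 16556 genes above the lowest value in most tumors was 0.003. It was 0.40 among oxidative phosphorylation subunits and 0.62 among cytosolic ribosomal proteins. Pairs within the large subunit had a mean r of 0.30, pairs within the small subunit 0.28 and mixed pairs 0.28. The mean over all member pairs fell to 0.17 without tumors 6 and 8, the tumors farthest from the median member level.

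MRPL50, MRPL46, MRPS11 and MRPS21 had the highest mean r with the other members (0.44, 0.42, 0.42 and 0.41). MRPL50 and MRPL46 are mitochondrion-specific proteins of the large subunit, and neither passed the test between tumors and normals (difference 0.40 ± 0.25 and 0.24 ± 0.18, SE). The lowest mean r belonged to MRPL33 on the row ENSCAFG00000005180 (0.02), MRPL14 (0.07), MRPL21 (0.10) and MRPL34 (0.13). Of these, MRPL33, MRPL14 (0.79 ± 0.22, SE, adjusted p = 0.00181) and MRPL34 (0.43 ± 0.16, SE, adjusted p = 0.0141) were higher in tumors, of which MRPL34 did not pass in the DESeq table (0.13, adjusted p = 0.444).

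**Figure D4:**
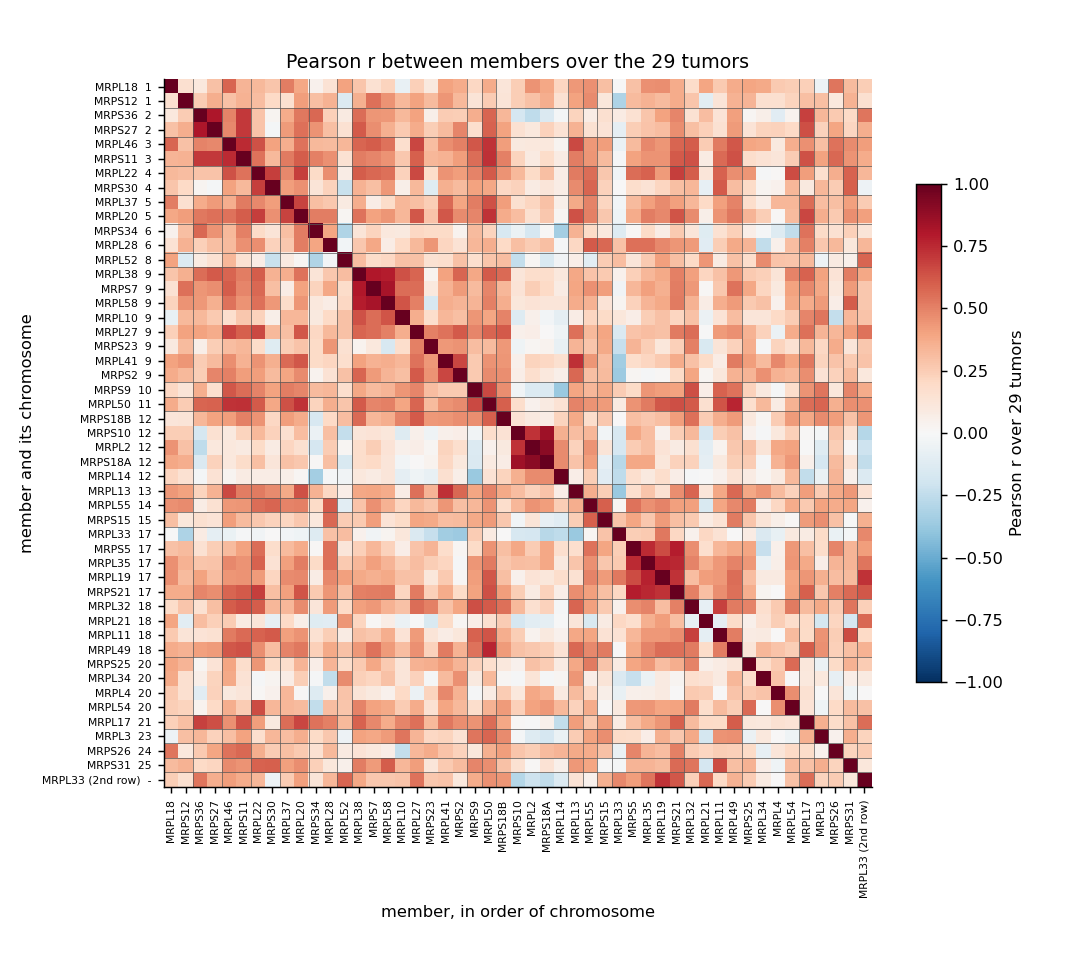
Pearson's r over the 29 tumors is shown by colour for every pair of the 49 members, in order of chromosome in the RefSeq assembly, with lines between chromosomes. Most cells are above 0, and many of the darkest cells off the diagonal lie between members of the same chromosome, with MRPL2 and MRPS18A reaching 0.90.

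Most of the closest pairs lay on the same chromosome. The 66 pairs of members on 1 chromosome had a mean r of 0.45, against 0.27 for the 1062 pairs on different chromosomes. This did not hold for every chromosome. The mean r was 0.16 for the only pair on chromosome 1 and 0.29 on chromosomes 18 and 20, while it was 0.45 on chromosome 9, 0.43 on chromosome 12 and 0.57 on chromosome 17. Of the 20 highest pairs, 13 shared a chromosome, while 5.85% of all placed pairs did. The highest were MRPL2 with MRPS18A (0.90) and MRPS10 with MRPS18A (0.85) on chromosome 12, MRPS7 with MRPL58 (0.82) on chromosome 9, and MRPS27 with MRPS36 (0.81) on chromosome 2. MRPL46 and MRPS11, which are next to each other on chromosome 3, had an r of 0.75. The pair of highest r on different chromosomes was MRPL50 with MRPL49 (0.76).

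Members were also compared with up to 10 genes on each side of them in gene order. Their mean r with these neighbours, averaged over the 48 placed members, was 0.24, against 0.16 over 10900 placed genes, and 31 members were above the median of those genes. In 15 members it exceeded the mean r with the other members. It was highest for MRPL2 (0.73), MRPS10 (0.61), MRPS7 (0.55), MRPS27 (0.54) and MRPS18A (0.50). MRPS18A had an r of 0.96 with YIPF3, MRPL2 of 0.93 with KLHDC3 and MRPL22 of 0.93 with CNOT8, each a neighbour without a known role in the mitochondrial ribosome. Tumors 3 and 21 were the highest tumors in MRPS18A, YIPF3, MRPL2 and KLHDC3. In MRPL22 tumor 2 was at -1.72 and the next lowest tumor at -0.56. The r of these neighbour pairs without such tumors was not computed. MRPL13 on chromosome 13 had a mean r of 0.29 with its neighbours and its highest with DERL1 (0.78). These neighbours did not all move alike between the groups. Every tumor lay above every normal in DERL1 (normals -1.73 to -1.12) and TBC1D31 (normals -1.36 to -1.17), as in MRPL13. In COL14A1 every tumor lay below every normal (normals 5.68 to 5.94). Whether the position of MRPL13 played a part in its rise was not tested.

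In a stretch of chromosome 12, tumors 3 and 21 stood above the others. MRPS10 was at 1.81 in tumor 3 and 1.49 in tumor 21, MRPL2 at 1.84 and 1.39, and MRPS18A at 3.21 and 2.30, and these were the 2 highest tumors for each gene. The 32 placed genes from MRPS10 to MRPS18A had a median value of 1.98 in tumor 3 and 1.35 in tumor 21, and of 0.01 in the other tumors. Tumor 3 was the highest or second in 31 of the 32 genes and tumor 21 in 18. MRPL14, the second gene beyond MRPS18A in this order, was at 0.97 in tumor 3 and at -0.50 in tumor 21, the lowest of all tumors. MRPS18B, elsewhere on chromosome 12, was not high in these tumors, with -0.51 in tumor 3 and -0.79 in tumor 21. Without tumors 3 and 21 the r of MRPL2 with MRPS18A went from 0.90 to 0.77, that of MRPS10 with MRPS18A from 0.85 to 0.75 and that of MRPS10 with MRPL2 from 0.72 to 0.50.

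**Figure D5:**
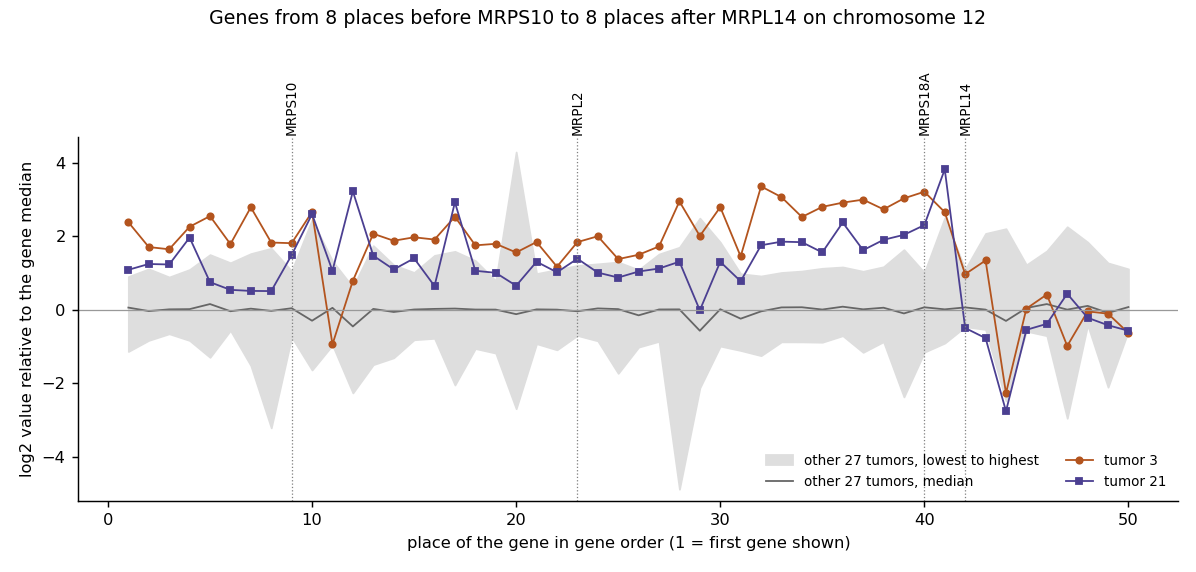
The log2 value relative to the gene median is plotted for 50 genes in their order on chromosome 12 in tumor 3, in tumor 21 and, as a line and a grey range, in the other 27 tumors. Both tumors lie above the median of the others from the left edge to MRPS18A in nearly all genes. At MRPL14 tumor 3 is at 0.97, still above it, and tumor 21 is at -0.50, below all other tumors.

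On chromosome 9 a like pattern was seen in tumor 18. MRPL38 was at 1.25, MRPS7 at 1.41 and MRPL58 at 1.53 in this tumor, the highest of all tumors, and the next highest values were 0.57, 0.70 and 0.90. MRPL10, farther along the chromosome, was at 1.82 in tumor 18 with the next tumor at 0.90. The other members on chromosome 9 were not high in tumor 18, with -0.65 for MRPS23, the second lowest tumor, 0.16 for MRPL27, -0.02 for MRPL41 and 0 for MRPS2. Of the 27 placed genes from MRPL38 to MRPL58, 23 were highest in tumor 18, with a median of 1.48 there against 0.03 in the other tumors. MRPL21 on chromosome 18 was at 3.23 in tumor 9 and at 1.34 in the next tumor. Its neighbours FADD, CCND1 and TPCN2 were also highest in tumor 9 (2.85, 4.37 and 4.62), while for ANO1 (-1.39) and PPP6R3 (-0.56) tumor 9 was among the lowest tumors. The groups of genes that were high in these tumors were chosen after their values were seen, and DNA copy number was not tested.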

How the data were processed

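The members and gene lists were chosen with earlier results of these data known. Per the labels and the study's methods, the authors removed ribosomal RNA, made ScriptSeq libraries, sequenced paired-end reads in 1 batch, aligned them with COBWeb in Strand NGS 3.1 to CanFam 3.1, and normalized expression by TMM and by DESeq. The deposited values are log2 values minus the gene median over 33 samples. The last line of each copy is incomplete and was dropped (25096 and 25139 rows remained). Total counts are not known, so precision is given as the worth of 1 read pair above the lowest value. Because the tables hold log2 values and not counts, no pseudocount was added and limma 3.58.1 (R 4.3.3, eBayes with trend, Benjamini-Hochberg) replaced a count test. Genes that lay above a shared lowest value in 4 samples or more were tested (24471 genes), and a call needed an adjusted p of at most 0.05 and, where stated, a 2-fold change. The fit was tested on simulated data. Correlations left out genes at the lowest value in more than 7 tumors. Each sample is 1 library, and p-values measure the spread between these samples. Members named are MRPL24, those called, the 4 least changed, the 4 most variable, the 4 highest and lowest in mean r, those whose call differed between tables, and a list by role, of which MRPL12, MRPL44, MRPS18C and MRPS22 were not analysed here. In the other lists the largest called changes are named. Further neighbours and MRPL2, MRPL10, MRPL27, MRPL38, MRPL49, MRPS23, MRPS27, TUFM, DAP3 and NRF1 were chosen after their values were seen. Chromosomes and gene order come from RefSeq (UU_Cfam_GSD_1.0), another assembly than that of the files, and 49 of 49 symbols matched. Alternatives were the authors' DESeq table, other fits, filters and scalings, and samples left out; those leaving out tumors 3, 4, 6 or 21, and the authors' DESeq table centred, were chosen after seeing the data. Python 3.11.15, numpy 2.4.6, pandas 2.3.3 and matplotlib 3.10.9 were used.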

Additional observations from a re-analysis of the deposited data

Results flagged for a closer look

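In 4 of the 50 rows, 1 of the 4 normals stood far from the other normals, with a gap to the nearest of them that took more of the whole range than Dixon's critical value for 4 samples. Chance marks about 1 in 20 groups in this way. On the MRPL33 row ENSCAFG00000005186 normal 3 was at 0.74 and the others at 0.26 to 0.30 (gap 0.909 of the range). Normal 4 was the low sample in the other cases. In MRPL35, a mitochondrial ribosomal protein of the large subunit, it was at -0.87 and the others at -0.44 to -0.39 (0.894), in MRPL49 at -0.50 and the others at -0.27 to -0.24 (0.858), and in MRPS5 at -0.57 and the others at -0.30 to -0.25 (0.851).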

How the results depend on the processing

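No paired analysis was possible because the sample numbers follow the order of the records and the labels name no shared animal, litter or day. The count of members past both limits, 6, was 1 in the DESeq table, 3 in the centred DESeq table and 32 without the fold limit, and ran from 1 to 8 as single normals or tumor 4 were left out. It stayed at 6 under the other fits, filters and the centring. By subgroup the DESeq table gave 1 for the large subunit, 0 for the small subunit, 1 for members with a bacterial counterpart and 0 for mitochondrion-specific members. For translation factors, tRNA synthetases and mitochondrial DNA genes together, 15 genes were past both limits, 3 in the DESeq table, 40 without the fold limit and 12 to 15 as single normals were left out. Over all genes 13821 were called, 8138 where a gene had to lie above the lowest value in 17 samples, a setting that tests fewer genes, and 12818 to 13762 as single normals were left out. The difference in member level between the groups was 0.59, and 0.29 in the DESeq table. The mean r over member pairs was 0.17 without tumors 6 and 8, 0.21 without tumor 6, and 0.28 to 0.31 otherwise. The DESeq table turned the sign in MRPL11 (-0.13), MRPL2 (-0.10), MRPL3 (-0.14), MRPL46 (-0.063), MRPL49 (-0.020), MRPS15 (-0.029), MRPS27 (-0.0019) and MRPS9 (-0.30), of which none passed the test in either table. MRPS9 was also at -0.047 in the centred DESeq table and at -0.070 to 0.105 as single normals were left out, and MRPL52 at -0.108 to 0.011. The cause of these changes was not tested. Near the lowest value, the worth of 1 read pair limits a single value.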
